A study of Drosophila melanogaster with 32 samples.

Results

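Accessible chromatin sites were followed that were open in testes full of spermatogonia and were no longer listed once germ cells had gone on to become spermatocytes. A site was counted as lost when its peak in the bam mutant list overlapped, by 1 bp or more, a peak of the heat shock control list but no peak of the 48h list and none of the 72h list. Of the 30062 bam peaks, 25265 overlapped a control peak, and 842 of these were lost in this sense. The sites were thus chosen by peak calls in the bam, control, 48h and 72h lists, so all values from those lists and from the maps of the same libraries are given as a description, without a test. The peak lists of aly and topi mutants and the RNA-seq counts took no part in the choice.

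The samples were testes of Drosophila melanogaster, and ATAC-seq, which marks DNA that a transposase can reach, was deposited as 1 peak list per condition. The bam flies were bam -/-, grown at 22 C for 12 days and not heat-shocked, and their labels name spermatogonia as the enriched stage. The heat shock control was bam -/- without a Bam transgene, grown at 22 C for 9 days, shocked at 37 C for 30 min and kept at 25 C for 48 h. The 48h and 72h flies were bam -/- with Bam driven by a heat shock promoter, were grown and shocked in the same way, and were kept at 25 C for 48 h or 72 h. Their labels name young (48h) and mature (72h) spermatocytes as the enriched stage. The aly -/- and topi -/- flies grew at 25 C for 10 days and were not heat-shocked; no bam allele or transgene is labelled for them, and the enriched stage named is mature spermatocytes. Each ATAC-seq replicate held 10 to 20 pairs of testes from flies under 1 day old. There were 2 replicates of bam, 2 of the control, 3 of 48h and 3 of 72h, 6 aly libraries (3 replicates in pairs of technical repeats) and 4 topi libraries (2 replicates likewise). The sources used here do not say how replicates were combined into the lists. RNA-seq had 2 libraries each of bam, 48h, 72h and aly, from 100 pairs of testes of flies under 2 days old. It had no heat shock control. In RNA at 48h and 72h against bam, the shock, the growth conditions, the transgene and the stage thus cannot be told apart. In RNA of aly against 72h, the aly mutation cannot be told apart from growth conditions, shock, bam allele and transgene. The ATAC-seq control matched the 48h group in growth, shock and time, so at 48h the transgene and the stage cannot be told apart. The 72h group shares the transgene and has no control kept for 72 h. At 72h the transgene, the later age and the stage cannot be told apart.

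Bam is the protein that ends the transit-amplifying divisions of the fly male germ line, and without it spermatogonia keep dividing. After the switch, germ cells enter a long growth phase as primary spermatocytes and turn on a large set of testis genes. That programme needs the testis meiotic arrest complex (tMAC), of which Aly and the zinc finger protein Topi are parts, so spermatocytes form in their mutants but stop before meiosis. An open site lost along this path can mark a promoter or enhancer that closed in the germ line. It can also mark a site in somatic cells of the testis (hub, cyst, muscle, fat body), which all these whole-testis samples contain. In bulk samples, fewer cells of a type and less signal per cell cannot be told apart.

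The lost sites were weak and narrow. Their fold enrichment at the summit, as the authors' peak lists give it, had a median of 2.16 in bam (quartiles 1.97 and 2.40, range 1.52 to 11.4) and 2.09 in the control. The 23162 bam peaks that were also listed in the control, at 48h and at 72h, called kept peaks here, had a median of 3.48 in bam. Lost sites were 135 bp wide in the median against 226 bp for kept peaks, and 661 of the 842 were under 200 bp wide. Only 6 lost sites reached a fold enrichment of 4. Across the members, bam and control fold enrichments had a Spearman correlation of 0.49 over 842 sites, against 0.89 over the kept peaks. The share lost was lower in each stronger bin. It was 16.8% of the bam peaks shared with the control (253 of 1510) at a bam fold enrichment below 2, 6.85% between 2.2 and 2.5, and 0.0644% (6 of 9312) at 4 or more. The 48h and 72h lists held 36412 and 35547 peaks in all, the bam list 30062 and the control list 31173.

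**Figure D1:**
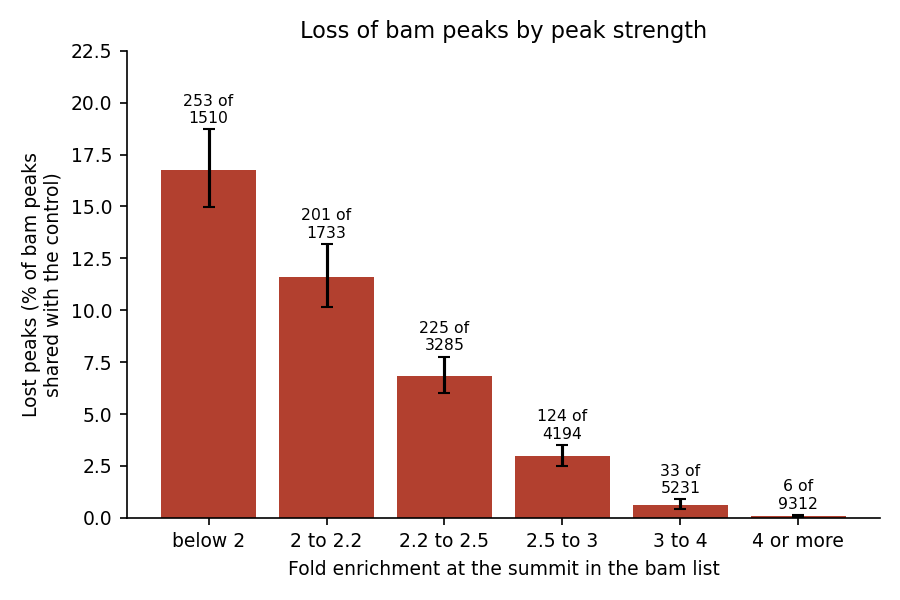
Share of bam peaks shared with the control that were lost at both 48h and 72h (y axis, %), by fold enrichment at the summit in the bam list (x axis). Bars are shares of the counts printed above them, and lines are 95% Wilson intervals for counting error; the share goes from 16.8% in the weakest bin to 0.0644% in the strongest.

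Because strength and loss went together, members are set beside 3232 kept peaks of like strength, those with a bam fold enrichment between the members' quartiles (1.97 to 2.40). Their median bam fold enrichment was 2.22. The match was on the bam list alone. In the control these kept peaks had a median fold enrichment of 2.30, against 2.09 for members. They were also wider, at a median of 167 bp against 135 bp, and were chosen by being listed at 48h and 72h. At the edge of the rule, the members nearest to a 48h or 72h peak lay 3 and 4 bp from it, 56 members had such a peak within 100 bp and 476 within 1000 bp. Just outside it, the bam peak with the smallest overlap shared 9 bp with 48h and 72h peaks, and 7 such peaks shared 20 bp or less. On the control side, the smallest overlap that admitted a member was 1 bp, and 13 members had 20 bp or less. The median gap was 881 bp to the nearest 48h peak and 1293.5 bp to the nearest 72h peak.

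The 6 strongest lost sites lay away from gene ends. All positions are in build dm6, counted from 1. The strongest, at chr2R:5049672-5050418, had a fold enrichment of 11.4 in bam, 10.1 in the control, 8.79 in aly and 6.43 in topi. Its nearest 48h peak was 5165 bp away and its nearest 72h peak 5184 bp away, and the nearest gene end 15279 bp away. This site was thus open in bam testes and in both tMAC mutants, and unlisted only in the 2 conditions with the transgene. The next, at chr3L:15297349-15297552, had the same pattern, with 9.43 in bam, 10.9 in the control, 7.82 in aly and 8.28 in topi, and lay 1531 bp from a gene end. The site at chr2L:6797542-6797681 was also listed in all 4 conditions without the transgene, at 4.13 in bam, 4.36 in the control, 2.73 in aly and 3.61 in topi. The site at chr2R:25257242-25257814 was listed in bam (4.90), in the control (5.04) and in topi (4.90) but not in aly. The remaining pair, at chr2L:16203790-16204278 (5.50 in bam, 5.23 in the control) and chr3L:26467052-26467195 (4.72 and 4.92), was listed in neither mutant. The last of these lay 95785 bp from the nearest gene end, and its nearest peak in aly was 102909 bp away.

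As a group, a larger share of the lost sites was listed in topi than in aly, and both shares were smaller than those of kept peaks of like strength. An aly peak overlapped 120 of the 842 (14.3%, Wilson interval 12.1 to 16.8) and a topi peak 381 (45.2%, 41.9 to 48.6). For kept peaks of like strength the shares were 68.9% and 82.9%, and for all kept peaks 88.4% and 93.3%. Neither mutant listed 427 of the lost sites (50.7%), against 11.8% of kept peaks of like strength. Sites listed in topi alone numbered 295 (35.0%), in aly alone 34 (4.04%) and in both 86 (10.2%). The topi list was the longest of all, at 38078 peaks against 29559 in aly. With 1 list per condition these differences have no replicate test, and the intervals cover counting error only. Where listed, the sites were weak in the mutants as well, with a median fold enrichment of 2.30 in aly and 2.02 in topi.

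**Figure D2:**
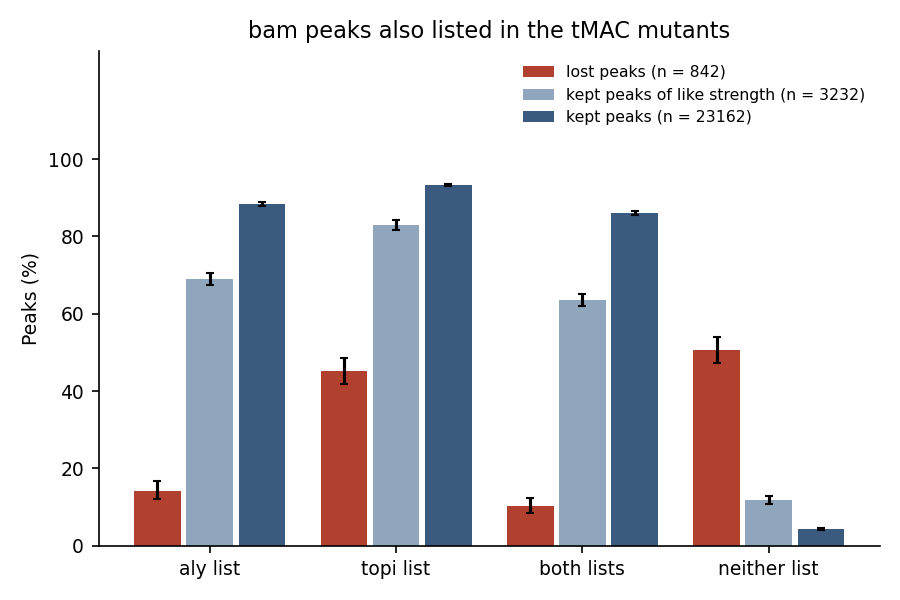
Share of peaks (y axis, %) that overlap a peak of the aly list, of the topi list, of both or of neither, for the 842 lost peaks, the 3232 kept peaks of like strength and all 23162 kept peaks. Lines are 95% Wilson intervals; 50.7% of the lost peaks were in neither mutant's list, against 11.8% of the kept peaks of like strength.

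Sites lost at a single time point were listed in the mutants in larger shares. Another 342 bam peaks shared with the control were unlisted at 48h but listed at 72h, and 919 were listed at 48h but not at 72h. Aly listed 27.5% of the first and 36.02% of the second, against 14.3% of the sites lost at both times. Topi listed 49.7% and 62.4%, against 45.2%. The median bam fold enrichments of these sets were 2.26 and 2.22, near the members' 2.16, and the differences were not tested.

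The authors' nucleosome maps, which come from the same ATAC-seq libraries, held fewer positions at the members at 48h and 72h. A mapped position lay within 250 bp of the summit at 94.4% of the lost sites in bam and 93.5% in the control, but at 62.2% at 48h and 43.8% at 72h. The share was 46.8% in aly and 74.5% in topi. Kept peaks of like strength had one at 99.3% at 48h, 99.0% at 72h, 85.5% in aly and 93.8% in topi. The maps list positions where fragments were found, so a site without reads has no position, whether or not a nucleosome sits there. Scaled to reads per 1000000 of each map, and with a site that had no position counted as 0, the median reads over the 842 sites were 13.3 in bam, 12.1 in the control, 5.04 at 48h and 0 at 72h. The maps of 48h and 72h rested on more reads in all (2775460 and 2097020) than that of bam (1125680). At the 6 strongest members no position was mapped at 48h or at 72h, while bam and the control had 1 to 3 at each.

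**Figure D3:**
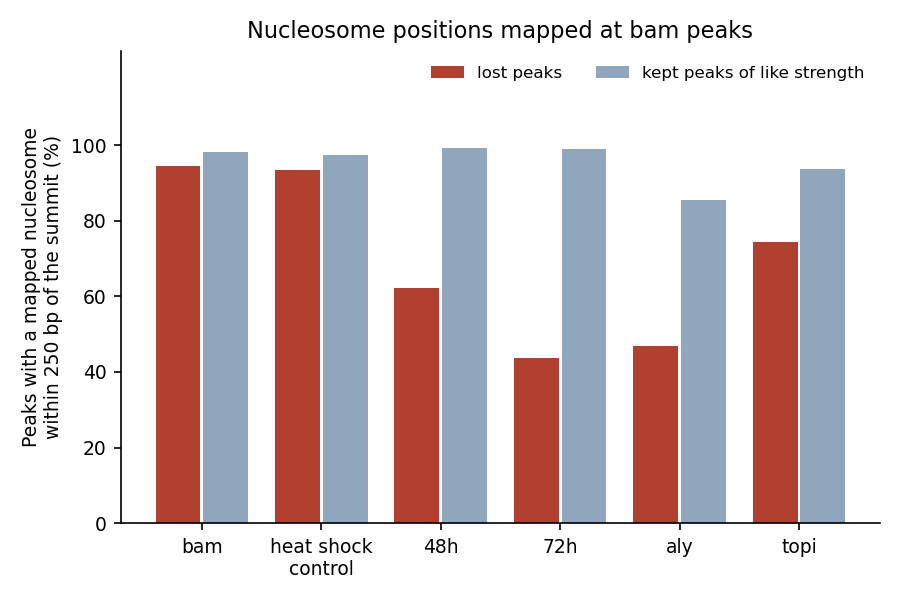
Share of peaks (y axis, %) with at least 1 mapped nucleosome position within 250 bp of the summit in the map of each condition (x axis), for the lost peaks and the kept peaks of like strength. Among lost peaks the share goes from 94.4% in bam to 43.8% at 72h, while kept peaks of like strength stay above 85% in every map.

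Where a position was mapped within 73 bp of the summit, about the reach of 1 nucleosome, its occupancy (a fraction from 0 to 1 in the deposited maps) was higher at lost than at kept sites. In bam the median occupancy was 0.777 over 336 lost sites, 0.667 over 1239 kept sites of like strength and 0.564 over 6107 kept sites. At 72h the lost sites with such a position had a median of 0.847 (140 sites), against 0.643 for kept sites of like strength. With members at a -log10 q of 10 or more in bam and control, the median in bam was 0.579 over 19 sites. That was below the 0.667 of kept sites of like strength, while at 72h it was 0.867 over 9 sites. These members were stronger, with a median bam fold enrichment of 2.91. The sites compared at 72h are those with reads left, so these medians are not over all members.

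Lost sites were unevenly spread over the genome. On the X chromosome 35 of 3519 bam peaks shared with the control were lost (0.995%, Wilson interval 0.716 to 1.38), against 790 of 21424 on the arms of chromosomes 2 and 3 (3.69%, 3.44 to 3.95). Among weak peaks, those with a bam fold enrichment below 2.5, the shares were 3.85% on the X and 11.0% on the arms of chromosomes 2 and 3. The small chromosome 4, which is largely heterochromatin, lost 15 of 284 (5.28%), and the Y 2 of 38.

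Along the arms, the share lost was higher nearer the centromere, where pericentromeric heterochromatin begins. Within 3 Mb of the end of the arm nearest the centromere, 11.4% of the shared bam peaks on the arms of chromosomes 2, 3 and X were lost (96 of 839). The share was 6.03% from 3 to 6 Mb, 3.06% from 6 to 9 Mb and 2.68% (507 of 18946) farther out. Among peaks below a fold enrichment of 2.5 the same order held, with 28.2%, 17.6%, 9.80% and 8.56%. The arms were not alike. In the first 3 Mb, 2R lost 52 of 137 peaks (37.96%), 3L lost 16 of 70 (22.9%), 3R lost 4 of 26 (15.4%), 2L lost 24 of 398 (6.03%) and X lost 0 of 208, which allows a share of up to 1.44% (3 counts of the total). Of the 96 members in the first 3 Mb, topi listed 31 (32.3%) and aly 5 (5.21%), and of the 507 beyond 9 Mb, topi listed 241 (47.5%) and aly 86 (17.0%). Kept peaks of like strength also had smaller shares in the first 3 Mb, 67.01% in topi and 50.5% in aly, than beyond 9 Mb, 84.5% and 70.01%. These shares come from 1 list per condition, and the depth of coverage over repeats was not examined.

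**Figure D4:**
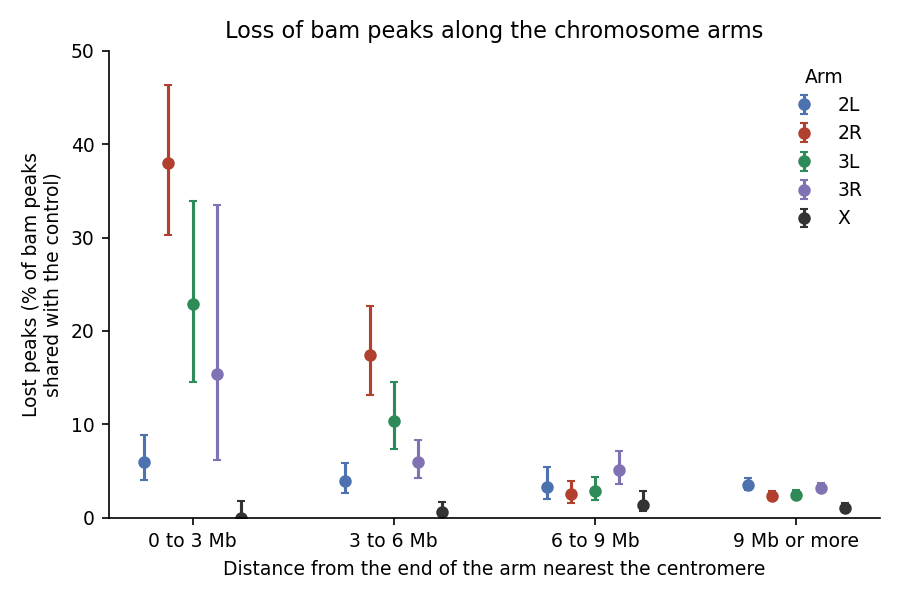
Share of bam peaks shared with the control that were lost (y axis, %) by distance of the summit from the end of the arm nearest the centromere (x axis, Mb), for each arm. Points are shares and lines 95% Wilson intervals; 2R has 37.96% in the first 3 Mb and 2.37% beyond 9 Mb, and X has 0 of 208 in the first 3 Mb.

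Most lost sites were inside genes and away from their ends. The body of a gene held 617 members (73.3%), against 80.4% of kept peaks of like strength and 71.2% of all bam peaks, and 80 members (9.50%) lay within 100 bp of a gene end, against 33.7% of all kept peaks and 10.5% of kept peaks of like strength. The median distance to a gene end was 1864 bp for members and 1653 bp for kept peaks of like strength. No gene lay within 1000 bp of 149 members (17.7%), against 9.41% of kept peaks of like strength. Strand is missing from the gene positions used, so starts and ends of genes are not separated here.

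Some genes held several lost sites. Of 579 genes with a member in the body, 63 held 2 or more and 5 held 4 or more, and the genes in this paragraph were chosen after these counts were seen. DIP-lambda, a gene of the DIP family of immunoglobulin cell surface proteins in the proximal part of 2R (chr2R:326768-705848), held 9 lost and 4 kept peaks. Its members were weak, between 1.80 and 2.82 in bam, none was listed in aly and 1 was listed in topi. Its RNA was 2.07 and 1.72 CPM in bam, 7.77 and 8.95 at 48h, 15.9 and 15.7 at 72h, against 0.719 and 0.690 in aly. RNA of DIP-lambda thus rose 8.34-fold from bam to 72h (log2 3.06, SE 0.13, edgeR quasi-likelihood adjusted p = 5.37e-20), while 9 sites in its body were lost. Myo81F, a myosin heavy chain gene in the proximal part of 3R, held 4 lost and 5 kept peaks, and its RNA rose as well, from 1.32 and 2.02 CPM in bam to 8.73 and 9.88 at 72h (5.52-fold, edgeR adjusted p = 4.04e-15). Snoo, the fly Ski/SnoN homologue of TGF-beta signalling, held 5 lost and 21 kept peaks, and its RNA went the other way, from 68.5 and 68.5 CPM in bam to 19.0 and 19.9 at 72h (log2 -1.81, SE 0.057, edgeR adjusted p = 9.79e-24). The gene of the MAP kinase Rolled, rl, held 4 lost and 12 kept peaks, and its RNA fell from 121 and 119 CPM to 52.0 and 50.4 (log2 -1.23, SE 0.038, edgeR adjusted p = 5.05e-24). The gene l(3)80Fg held 4 of each.

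Over the genes with 2 or more lost sites in the body, 60 were tested, and 42 (70.0%) were lower and 14 (23.3%) higher at 72h than in bam; over all 13495 genes tested, 43.6% were lower and 46.1% higher. Genes with 2 or more kept peaks of like strength had 78.4% lower and 18.03% higher, so the members' genes were not set apart by these shares. The differences between these gene sets were not tested. A gene counts as lower or higher here at an adjusted p below 0.05 in edgeR's quasi-likelihood test with Benjamini-Hochberg adjustment over all genes. The libraries held 20064489 to 28984275 counts, and 2 libraries of a group differed little (7.18% to 7.53% of genes at a chi-square p below 0.05). Nothing in the labels ties the libraries to separate crosses or days, so the p-values measure only the spread between these libraries, which may be technical.

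Genes with an end within 100 bp of a lost site are the nearest to promoters that the annotation allows. They numbered 86, at 80 sites; 82 were in the count table and 60 had enough counts to be tested. From bam to 72h, 30 were lower (50.0%), 20 higher (33.3%) and 10 not called. Their median log2 change was -0.43, against 0.06 over all genes tested. It was -0.39 for genes at the ends of kept peaks of like strength and -0.63 at the ends of all kept peaks. Of 7611 tested genes at the ends of all kept peaks, 61.0% were lower and 30.8% higher. At 2-fold or more, 17 were lower and 17 higher (28.3% each), against 27.9% and 36.7% of all genes. Genes at the ends of kept peaks of like strength were lower in 52.0% and higher in 34.4% of 331 tested, close to the members' shares. At 48h these like-strength genes were lower in 52.0% and higher in 33.8%, and by 2-fold in 28.1% and 21.1%. In aly against 72h they were lower in 41.4% and higher in 42.0%, and by 2-fold in 29.0% and 24.5%. From bam to 48h, 30 of the genes at lost sites were lower (50.0%) and 13 higher (21.7%), against 41.8% and 44.1% of all genes. By 2-fold or more, 22 were lower and 9 higher at 48h (36.7% and 15.0%), against 22.7% and 30.2% of all genes. The share lower at 48h was 35.5% without either 48h library in turn, where that of all genes was 34.2% or 33.9%, and the median log2 change over all genes tested went from 0.06 to 0.27 or 0.25. The share lower by 2-fold at 48h was 17.7% without the first 48h library, 19.4% without the second and 22.6% without the first bam library. In aly against 72h, 18 were lower (30.0%) and 28 higher (46.7%), against 45.9% and 42.2% of all genes. By 2-fold or more these were 11 and 15 (18.3% and 25.0%), against 33.6% and 22.1% of all genes. Scaled by library size alone, a 2-fold change was called lower for 9 and higher for 26 (15.0% and 43.3%).

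Counting only called genes whose bam mean reached 10 CPM, the 8 largest falls were those of CG3198, Mys45A, Trm1, luna, dbe, AGO3, CG10395 and Drep4. AGO3, the Argonaute protein of the piRNA ping-pong cycle, which silences transposons in the germ line, had a lost site over its gene end at chr3L:23554509-23554613. That site had a fold enrichment of 2.64 in bam and 3.64 in the control, was listed in neither mutant, and lay 147 bp from a 48h peak and 169 bp from a 72h peak. A further 3 lost sites lay inside the gene (chr3L:23554593-23689640), and 1 kept peak. None of the 4 was listed in aly or topi, and all were stronger in the control than in bam. AGO3 RNA was 254 and 254 CPM in bam, 69.3 and 65.8 at 48h, 85.3 and 80.4 at 72h, against 62.7 and 57.6 in aly. The bam libraries stood above all others, and the RNA fell 3.07-fold at 72h (log2 -1.62, SE 0.032, edgeR adjusted p = 2.92e-29).

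CG3198 had its lost site at chrX:6673937-6674036, 247 bp from the nearest 48h peak, listed in topi (2.80) and not in aly. The same site lay in the flank of Mcm6, a subunit of the replicative helicase, so either gene may be the one it belongs to. CG3198 RNA was 110 and 106 CPM in bam, 40.5 and 40.5 at 48h, 18.02 and 17.7 at 72h, against 33.1 and 30.8 in aly. It fell 6.04-fold at 72h (log2 -2.59, SE 0.050, edgeR adjusted p = 1.26e-29). Mcm6 RNA was 129 and 131 CPM in bam, 26.1 and 25.99 at 48h, 36.2 and 35.9 at 72h, against 28.3 and 30.6 in aly, with the bam libraries again far above the others.

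Mys45A, a homologue of the yeast ribosome biogenesis factor Sda1, had a lost site at chr2R:9113894-9114005 that both mutants listed (3.28 in aly, 2.99 in topi). Its RNA was 137 and 137 CPM in bam, 46.9 and 49.1 at 48h, 25.1 and 26.4 at 72h, against 109 and 102 in aly. It fell 5.31-fold at 72h (log2 -2.41, SE 0.043, edgeR adjusted p = 1.54e-30) and was 4.09-fold higher in aly than at 72h (edgeR adjusted p = 6.11e-28). In this gene, the peak was listed and the RNA was high in the same conditions, bam and aly. Trm1, a tRNA methyltransferase gene, also had its site listed in both mutants (2.69 in aly, 3.78 in topi), but its RNA was low in aly. It was 53.7 and 54.96 CPM in bam, 13.3 and 12.4 at 48h, 12.4 and 11.3 at 72h, against 18.6 and 17.7 in aly (log2 72h against bam -2.20, SE 0.067, edgeR adjusted p = 4.15e-24).

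The other 4 falls were luna, a Krüppel-like factor, from 39.4 CPM (SD 0.4002) to 11.2 (SD 0.310); dbe, a homologue of the yeast ribosome biogenesis factor Krr1, from 88.7 (SD 4.19) to 27.2 (SD 2.03); CG10395 from 50.4 (SD 0.628) to 16.4 (SD 0.000464); and Drep4, a DNA fragmentation factor relative, from 18.5 (SD 2.96) to 6.13 (SD 0.262), each as the mean of 2 libraries in bam and at 72h. Their log2 changes were -1.82, -1.70, -1.62 and -1.60. The site of luna was listed in aly at 2.05, and those of dbe and CG10395 in neither mutant. Drep4 had 1 lost site at its end, listed in neither mutant, and another in its flank, listed in both. CG10395 RNA changed late, at 41.8 and 41.2 CPM at 48h against 50.8 and 49.9 in bam, and its fall at 48h was not called under 5 alternatives.

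Rises occurred at lost sites too. Only 4 genes met the rule for named rises, at 10 CPM or more. Dhod, the pyrimidine synthesis enzyme dihydroorotate dehydrogenase, rose from 65.8 and 71.7 CPM in bam to 246 and 249 at 72h (3.595-fold, edgeR adjusted p = 1.89e-30), with a kept peak at an end besides the lost one. Whamy, an actin nucleation factor of the WASP family, rose from 3.16 and 2.84 CPM to 17.6 and 19.2 at 48h and 9.65 and 10.4 at 72h, and was at 29.4 and 26.7 in aly. Vps51, a tethering factor of the Golgi, rose from 40.1 and 39.7 CPM to 79.9 and 79.1 (1.99-fold), with a site at chr2R:18710835-18710971 that both mutants listed (4.30 in aly, 3.23 in topi). The long noncoding RNA CR45250 (lncRNA:CR45250) rose from 0.283 and 0.172 CPM to 12.8 and 13.2 and was at 0.0958 and 0.0431 in aly. A kept peak lay at an end of that gene as well.

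**Figure D5:**
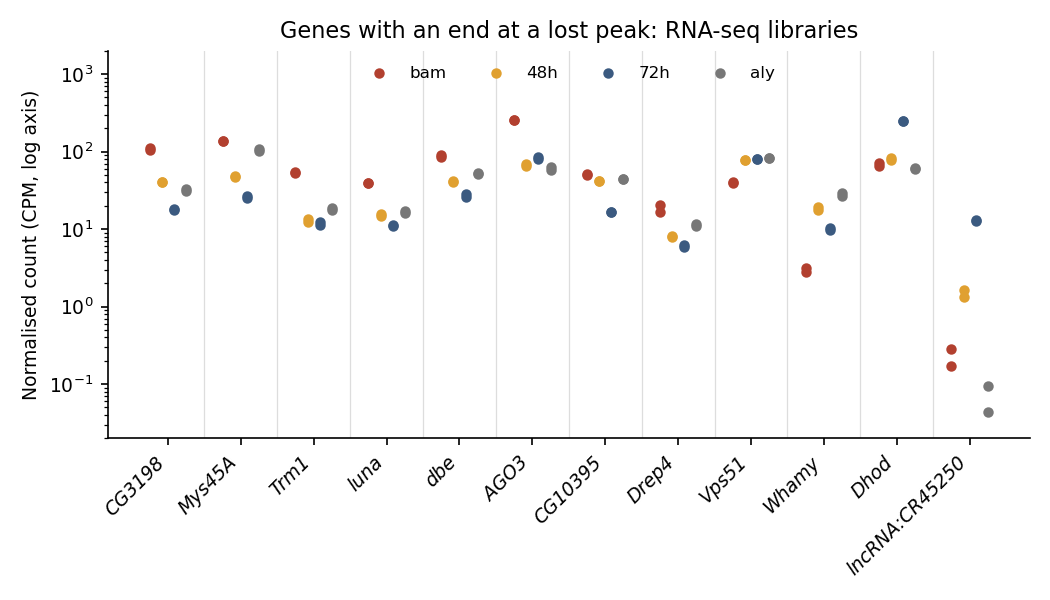
Normalised counts (CPM, y axis, log axis) of the 8 genes with the largest called falls and the 4 with called rises at 72h against bam, among genes with an end at a lost peak that reached a mean of 10 CPM in bam (falls) or at 72h (rises), ordered by their log2 change. Each point is 1 RNA-seq library, 2 per group; points of a group lie close together, as for AGO3 at 254 and 254 CPM in bam and 85.3 and 80.4 at 72h.

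The label of spermatogonial peaks was set against lists of genes, each gene linked to a lost site by its body or 1000 bp flank. Such a link was found for 834 of the 17253 counted genes with a symbol (4.83%), and long genes have more room for one. Lost sites were linked to 5 of 21 spermatogonial and early germ cell genes (AGO3, Rbfox1, how, ovo and pum). They were also linked to 2 of 24 piRNA genes (AGO3 and qin) and 3 of 20 DNA replication genes (CycE, Mcm6 and Psf1). Somatic lists held them too, with 4 of 32 hub and cyst cell genes (Egfr, Fas3, Pvr and ci), 5 of 26 sheath muscle genes (Mf, Mhc, Strn-Mlck, Tm1 and how) and 3 of 21 fat body and hemocyte genes (Col4a1, Pxn and srp). No member lay at the 12 tMAC and testis TAF genes or at the 18 accessory gland genes, and 1 lay at the 40 spermatid genes. Lost sites were linked to 1 of 32 mitotic, 1 of 16 pigment and 3 of 25 ecdysone genes. They were linked to 2 of 37 chromatin and 0 of 26 Polycomb genes. Kept peaks were linked in the same way to 21 of 21 spermatogonial, 23 of 24 piRNA and 20 of 20 replication genes. Somatic counts were 31 of 32 hub and cyst, 23 of 26 muscle and 12 of 21 fat body and hemocyte genes. With kept peaks at most of the same genes, the lists do not assign the lost sites to germ cells or somatic cells. The sites are called lost peaks here rather than spermatogonial peaks.

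In the spermatogonial, piRNA and DNA replication lists, each gene linked to a lost site was lower at 72h than in bam. The linked gene of the spermatid list, Pif1A, and that of the mitotic cell cycle list, aurA, were higher. Of all 709 tested genes so linked, 54.2% were lower and 34.1% higher, against 43.6% and 46.1% of all genes tested. Genes linked in this way to kept peaks of like strength had 60.8% lower and 30.7% higher. qin, a Tudor domain piRNA factor, was at 323 and 327 CPM in bam and 56.6 and 59.2 at 72h (log2 -2.49, SE 0.029, edgeR adjusted p = 1.75e-35), with a site of 2.32 listed in neither mutant. ovo, a germ line transcription factor, was at 110 and 111 CPM in bam, 24.2 and 24.8 at 72h, against 1.72 and 1.34 in aly (log2 72h against bam -2.17, edgeR adjusted p = 1.41e-27), with a site of 2.13 listed in neither mutant. how, an RNA-binding regulator that both germ cells and muscle express, fell from 145 and 149 CPM to 33.3 and 36.3. CycE, the cyclin of S phase entry, fell from 206 and 204 CPM to 36.6 and 35.6 at 48h and was at 72.7 and 72.8 at 72h. Over all tested members of these lists, 16 of 21 spermatogonial genes, 18 of 24 piRNA genes and 18 of 20 replication genes were lower at 72h, so most genes without a lost site were lower as well.

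The genes of the 3 somatic lists with lost sites fell too, 4 of 4 hub and cyst, 5 of 5 muscle and 3 of 3 fat body and hemocyte genes. Of all tested genes linked to a lost site by body or flank, 54.2% were lower at 72h. Col4a1, a collagen IV chain made by fat body and hemocytes, had 2 lost sites and went from 534 and 556 CPM in bam to 122 and 117 at 72h, against 41.9 and 40.8 in aly (log2 72h against bam -2.19, SE 0.028, edgeR adjusted p = 1.21e-34). Fas3, a hub cell adhesion protein, went from 140 and 137 CPM to 28.8 and 28.0. srp, the GATA factor of fat body and blood, had 3 lost sites and went from 39.5 and 40.1 CPM to 15.0 and 15.4. Mhc, muscle myosin heavy chain, went from 389 and 401 CPM to 206 and 196. The whole lists were also lower at 72h than in bam. The summed CPM of the hub and cyst list was 2673 and 2679 in bam, 1606 and 1599 at 48h, 1166 and 1166 at 72h, against 1195 and 1191 in aly, with 23 of 31 tested genes lower at 72h. That of the fat body and hemocyte list was 3307 and 3389 in bam, 1236 and 1256 at 48h, and 1301 and 1304 at 72h. It was 785 and 783 in aly, and 18 of 19 tested genes were lower at 72h. That of the muscle list was 3224 and 3267 in bam, 1679 and 1690 at 48h, and 1974 and 1992 at 72h. Of its genes, 20 of 26 were lower at 72h. Both sums were thus lower at 48h than at 72h. The accessory gland list rose from 107 and 103 CPM in bam to 2794 and 2753 at 72h, with 18 of 18 higher. In aly it was at 102 and 98.7 CPM, with 18 of 18 lower than at 72h. At 72h no gene of the muscle, fat body and hemocyte or accessory gland lists was at 0 in both libraries, and 1 gene of the hub and cyst list, cup, was at 0 in every library. The part of changed cell makeup in the loss of peaks was not tested.

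Of 49 signalling ligands and receptors, 10 were linked to a lost site (EcR, Egfr, N, Pvr, Ser, Wnt2, Wnt4, ci, fz2 and tkv), and 9 of these were lower and 1 higher at 72h. Over the whole list, 44 of 48 tested genes were lower and 4 higher. Of 55 homeobox and developmental regulators, 7 were linked to a lost site (Antp, aop, bab1, fru, nub, ovo and vg), with 5 lower and 1 higher, against 19 lower and 23 higher of the 48 tested in the whole list. Among all tested genes linked to a lost site by body or flank, 54.2% were lower and 34.1% higher at 72h. N, the Notch receptor, went from 118 and 117 CPM in bam to 25.5 and 24.9 at 72h, with a site of 2.27 in bam that was also listed in aly. EcR, the ecdysone receptor, went from 31.2 and 33.8 CPM to 7.34 and 8.24. Its site had a fold enrichment of 1.52 in bam, the lowest of all members, and 4.18 in aly, and was not listed in topi. A tRNA gene (tRNA:Arg-ACG-1-2) had an end at the same site. In the other direction, fru, which encodes BTB zinc finger proteins, held 3 lost sites while its RNA rose from 12.3 and 13.5 CPM in bam to 42.1 and 41.3 at 72h (log2 1.69, SE 0.067, edgeR adjusted p = 5.04e-21). The spermatid gene Pif1A held 1 lost site and its RNA rose from 1.55 and 1.89 CPM to 187 and 190. aurA, the mitotic kinase Aurora A, rose from 38.4 and 37.6 CPM to 130 and 136 with a lost site in its flank. Loss of a listed site thus went with lower RNA at some genes and with higher RNA at others.

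As a check of the labels, bam RNA was 94.9 and 98.5 CPM in bam mutants, 29.4 and 29.4 at 48h, 13.7 and 12.1 at 72h, against 95.8 and 97.4 in aly. aly RNA was 37.6 and 38.5 CPM in bam, 184 and 189 at 48h, 98.0 and 96.5 at 72h, against 72.0 and 69.6 in aly itself. Reads of each gene were thus counted in its own mutant, and what the alleles remove is not given in the labels, so these values do not check the genotypes. No lost site lay at either gene.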

How the data were processed

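The submitters' processing notes name MACS2 2.1.1, BWA 0.7.10, bedtools 2.25.0, STAR 2.5.4b, STAR 2.5.1b, Trim Galore 0.4.1 and deepTools 2.5.4, with genome dm6, and give no role for any of them. The deposited peak lists hold a fold enrichment ratio at the summit and a -log10 q for each peak, 1 list per condition. The deposited nucleosome maps hold an occupancy fraction and a read count per position. The deposited RNA-seq values are raw counts per gene identifier; the sources used here name neither the counter nor its strand setting, so overlapping and antisense genes are uncertain, although the labels name a stranded kit.

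The members and gene lists were chosen with earlier results of these data known. Overlaps, gene links and nucleosome windows were computed with pandas 2.3.3 on Python 3.11.15 and gene positions of RefSeq Release 6, which is dm6. A gene was at a lost peak when either of its ends lay within 100 bp of it, since no table of starts with strand was given. RNA-seq was fitted with edgeR 4.0.16 in R 4.3.3 on all 8 libraries (filterByExpr, TMM, quasi-likelihood test, Benjamini-Hochberg over 13495 genes, called below 0.05). CPM values are edgeR's normalised counts. On counts simulated with few changed genes, the fit recovered the changes put in. Most genes were called in the real comparisons, so the simulation does not check the scaling between groups. Alternatives were DESeq2 1.42.0, library size alone, no filter, only the compared groups, each replicate left out, the replicate number as a block, stricter peak rules and other gene links.

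Named by rule were the 6 strongest lost peaks; the 8 largest falls and up to 6 largest rises at 72h among called genes at lost peaks with a mean of at least 10 CPM in the group where they were higher and libraries that did not overlap; up to 3 genes of each of 16 lists by smallest p; and bam and aly. Genes with several lost peaks, and list genes linked only by body or 1000 bp flank, were named after their values were seen. CAGE counts were not used here, since their clusters carry no position, and neither were sequences, since no genome was used.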

Additional observations from a re-analysis of the deposited data

How the results depend on the processing

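Of the shares over genes and peaks, 150 alternative values stayed within the Wilson interval of the main share, and 22 moved outside it. That interval is wide over 60 genes. With DESeq2, 38.3% of genes at lost peaks were lower at 48h (main 50.0%), which counted as within it. The alternatives share most genes and libraries, so the interval does not measure how much they should differ. With each library left out in turn, 35.5% to 43.5% of genes at lost peaks were lower at 48h (main 50.0%) and 17.7% to 27.4% by 2-fold or more (main 36.7%). Over all genes tested, 33.9% to 39.2% were lower at 48h in those fits. Without the filter on low counts the members' shares were 31.2% and 15.0%, and the share lower at 72h was 37.5%, with more genes tested. Over all genes without that filter, 30.2% were lower at 48h and 35.9% at 72h. With library size alone, 23.3% were lower by 2-fold at 48h. In aly against 72h, 60.0% were then higher and 43.3% higher by 2-fold, where 48.2% of all genes were higher. This scaling moved the median log2 of all genes to 0.25 at 48h and, in aly against 72h, from -0.07 to 0.15. With members at a -log10 q of 10 or more (82 peaks, 24 tested genes), 62.5% were lower at 72h, and in aly against 72h 16.7% were lower and 8.33% lower by 2-fold. Under that rule aly listed 24.4% of the members, and a nucleosome position was mapped at 98.8% in bam, 100% in the control, 72.0% at 48h, 63.4% at 72h and 65.9% in aly. With overlaps of 50% of the bam peak (848 members, 726 of them shared), positions were mapped at 65.8% at 48h and 49.8% at 72h. Where no cause is named here, the cause was not tested.

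Deviations of libraries with the same replicate number had positive correlations between groups, from 0.05 to 0.25 (48h with 72h). Whether the replicate numbers pair the libraries is thus not settled. With the replicate block the share lower at 72h stayed at 50.0%, with the same 30 genes, and none of 153 values of named genes changed its call. Of the named genes, 13 alternative values reversed sign, all in aly against 72h, where their main values lay between -0.18 and 0.065. With DESeq2 these were Vps51 (log2 -0.015), qin (-0.040), Fas3 (-0.033) and Cdep (-0.063); with library size alone pum (0.22, main -0.0075, a call gained at an edgeR adjusted p of 3.73e-06), ftz-f1 (0.092), Hr38 (0.19) and MESR3 (0.046). With single libraries left out, pum ranged from -0.043 to 0.018 (0.0051 without the second aly library), Hr38 from -0.26 to 0.25 and Cdep from -0.043 to 0.078 (-0.019 without the first 72h library). An alternative added after seeing the data, genes at lost peaks with no kept peak at an end, gave 47.7% lower at 48h and at 72h. The planned CAGE and sequence results, and the link by start windows, were not run. Peaks this weak lie near the calling threshold, and 1 list per condition gives no replicate check of their loss.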
